A study of Mus musculus with 2 samples.

Results

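Long-read RNA-seq of the mouse adrenal gland gave 1939 transcript models that hold at least 1 splice site absent from the GENCODE M21 annotation and that drew at least 3 reads. They were chosen by 2 things in the deposited count tables, a class label (NNC, an unannotated donor or acceptor) and a count of 3 or more in either library. Models were matched between the libraries by their chain of junctions, and the 1939 are part of 117095 multi-exon models counted in all. The tissue came from C57BL/6J wild-type mice, in 2 biological replicates of 1 group. A description names females, the sex field is not filled in and no age is given, and the labels do not say how many animals were pooled for a replicate. There is no second condition, so every comparison is between models, sites or the 2 libraries. Replicate 1 held 810239 reads and replicate 2 held 587861, with no treatment or genetic change named in either.

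A spliceosome cuts an intron out between a donor, the 5′ splice site that nearly always begins with GT, and an acceptor, the 3′ splice site that nearly always ends with AG. Where a second GT or AG lies close by, the cut can fall there as well, and the exon then grows or shrinks by the distance between the sites. A shift by a multiple of 3 bases inside a coding exon keeps the reading frame, and other shifts change it. In the adrenal gland, steroid hormones come from the cortex and catecholamines from chromaffin cells of the medulla.

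The libraries differed in the length of what they caught. Weighted by reads, the median length of annotated models was 1648 nt in the first library and 3052 nt in the second, and the models chosen here followed with 1562 nt in replicate 1 and 2916 nt in replicate 2. Genes with symbols starting Rpl or Rps, mostly short genes of ribosomal proteins, drew 54922 reads in replicate 1 and 3199 in replicate 2. All 6 markers of the adrenal cortex were found (62649 and 53461 reads summed over the list in replicates 1 and 2), as were all 5 of the medulla (5018 and 4994). Kidney markers had no reads, liver markers had 2 reads in replicate 1, and the muscle list had 1 read there. Members of these lists did not all differ the same way: in the medulla list, Th had 980 and 310 reads and Chgb had 1621 and 2984. Erythroid markers summed to 1052 and 86 reads, endothelial markers to 146 and 351, and adipocyte markers to 155 and 21. Macrophage markers summed to 788 and 111, mostly Lyz2 (726 and 59), while Csf1r had 16 and 48. In such bulk tissue, fewer cells of a type, less RNA per cell and the difference in length between the libraries cannot be told apart.

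The splice sites below carry the main pattern, a new donor that lies 4 bases after an annotated one. Each line gives the last 4 annotated exon bases, then the intron, on the strand of the gene and on mm10, read from the GENCODE M21 transcripts that cover these bases. Capitals mark the GT of the annotated donor and the GT of the unannotated donor after it.
Idh3g, chrX:73782663-73782678, minus strand: ctcaGTaaGTacctgc
Lmf1, chr17:25585849-25585864, plus strand: tctgGTaaGTagagcc
Fth1, chr19:9984324-9984339, plus strand: aaagGTaaGTagatcc
Oaz1, chr10:80828793-80828808, plus strand: agagGTtgGTattgct
Scarb1, chr5:125283887-125283902, minus strand: ccagGTaaGTaggagg

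Donors further from the annotated one were read in the same way for the models with the most reads. They are shown with both GT pairs in capitals where both fit in the window, and for Chmp1a with the new GT alone, 25 bases after the annotated donor.
Hnrnpk, chr13:58394052-58394079, minus strand: acagGTtgagtatcaataatGTtaataa
Capn2, chr1:182484178-182484206, minus strand: tgagGTaccggcagaggatggGTggggct
Mrpl33, chr5:31614019-31614038, plus strand: tcttGTaagtcgGTctgagg
Chmp1a, chr8:123212631-123212650, minus strand: ccacttcgggGTcggagcgg

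For acceptors, the line starts at the first base of the annotated exon. The capital AG is the end of the longer, unannotated intron, so the letters up to it are lost from the exon.
Cdkn1c, chr7:143460665-143460678, minus strand: cAGaacagcgatgg
Dus1l, chr11:120791930-120791943, minus strand: gAGgacatgtctag
Boc, chr16:44487416-44487429, minus strand: cAGcgggaagacac
Star, chr8:25811790-25811802, plus strand: AGctgaacacggc
Cyp11b1, chr15:74836407-74836421, minus strand: acAGtcctcaatgtg
Cyp21a1, chr17:34802458-34802474, minus strand: atccAGaagcgactgca

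A last pair shows the ends of an intron called in Rdh9, with the first 2 and the last 2 intron bases in capitals. Both ends carry the same 20 letters.
Rdh9, donor end, chr10:127760106-127760125, plus strand: ttggctgcatGTctgacgga
Rdh9, acceptor end, chr10:127776653-127776672, plus strand: ttggctgcATgtctgacgga

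How the models were chosen sets how deep they are. Replicate 1 chose 929 of its 12699 models with the NNC label, and replicate 2 chose 1210 of 20001. Most of the others rested on 1 read (10630 in replicate 1 and 17329 in replicate 2). The median count among the chosen was 4 in both libraries, 359 in replicate 1 and 477 in replicate 2 had exactly 3 reads, and 16 and 21 had 50 or more. Together the 1939 models drew 8170 reads in replicate 1, or 1.01% of that library (95% Clopper-Pearson interval 0.987 to 1.03%), and 11652 in replicate 2, or 1.98% (1.95 to 2.02%). The mean was 1.5 ± 0.689% (SD, n = 2). These counts served the choice and are a description.

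**Figure D1:**
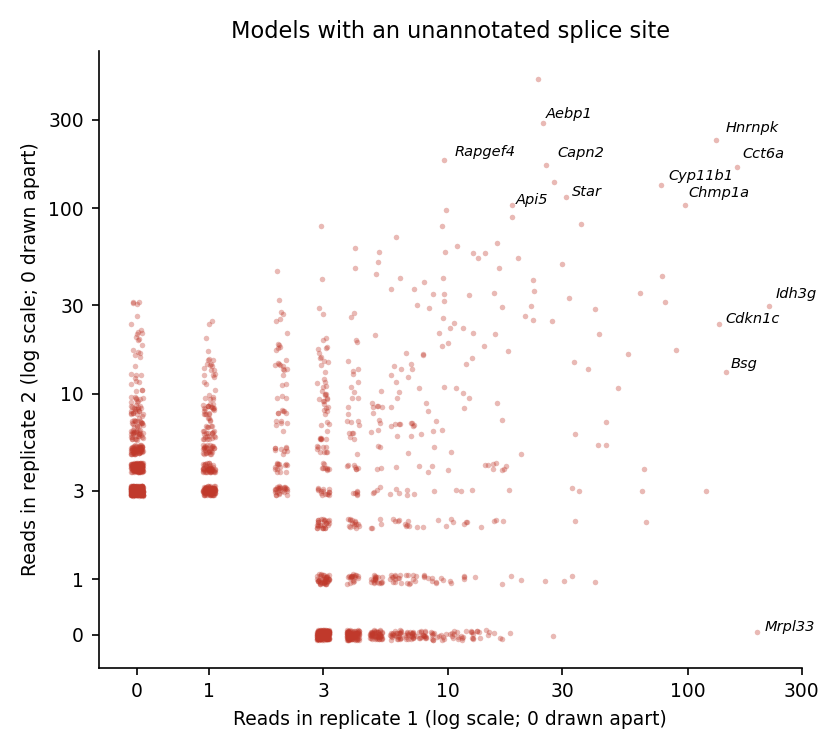
Reads of each of the 1939 models in replicate 1 (x axis) and replicate 2 (y axis), both on a log scale with 0 drawn apart and small random shifts to part the points. The empty corner below 3 reads in both libraries is the rule itself; the names mark genes among those with the highest mean level, and Mrpl33, with 197 reads in replicate 1 and 0 in replicate 2, lies at the bottom right.

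The models fell in 1319 genes, of which 1278 were protein coding, and 1002 of the genes had a single one. Most models, 1810, had 1 unannotated junction, 115 had 2, and 14 had 3 or more. The label did not capture every model of this structure. In replicate 1, 1370 of 9516 models labelled as a new combination of known sites (14.4%) also held an unannotated site, and in replicate 2 this was 3549 of 17185 (20.7%). No model labelled as annotated did. Taking the structure in place of the label would give 2688 models with 3 or more reads, 749 beyond the 1939.

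Donors were the more common of the unannotated sites. Of 2033 distinct unannotated junctions, 1152 had a new donor alone (56.7%), 648 a new acceptor alone (31.9%) and 233 both (11.5%). They used 1352 unannotated donors and 864 unannotated acceptors. Of these, 1054 donors (78.0%) and 715 acceptors (82.8%) moved the edge of an annotated exon. New first exons gave 203 donors, new last exons gave 49 acceptors, and new internal exons gave 86 donors and 89 acceptors. The last exon base lay in an annotated intron for 55.4% of the donors, whereas the first exon base lay in annotated coding sequence for 47.8% of the acceptors.

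Distance to the nearest annotated site of the gene was sharply uneven. A single position, 4 bases downstream, held 405 of the 1335 donors with an annotated donor in their gene (30.3%, Clopper-Pearson interval 27.9 to 32.9%). The next positions were far behind, with 50 donors at 2 bases downstream and 32 at 3 bases upstream. Acceptors spread over a few bases on the downstream side, with 74 at 2 bases, 129 at 3, 54 at 4, 35 at 5 and 24 at 6. Upstream they had 33 at 3 bases. Among sites within 30 bases, a distance of 4 either way took 57.5% of the unannotated donors and 15.7% of 3104 neighbouring pairs of annotated donors. A distance of 3 took 34.3% of the unannotated acceptors and 27.4% of 5110 pairs of annotated acceptors.

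**Figure D2:**
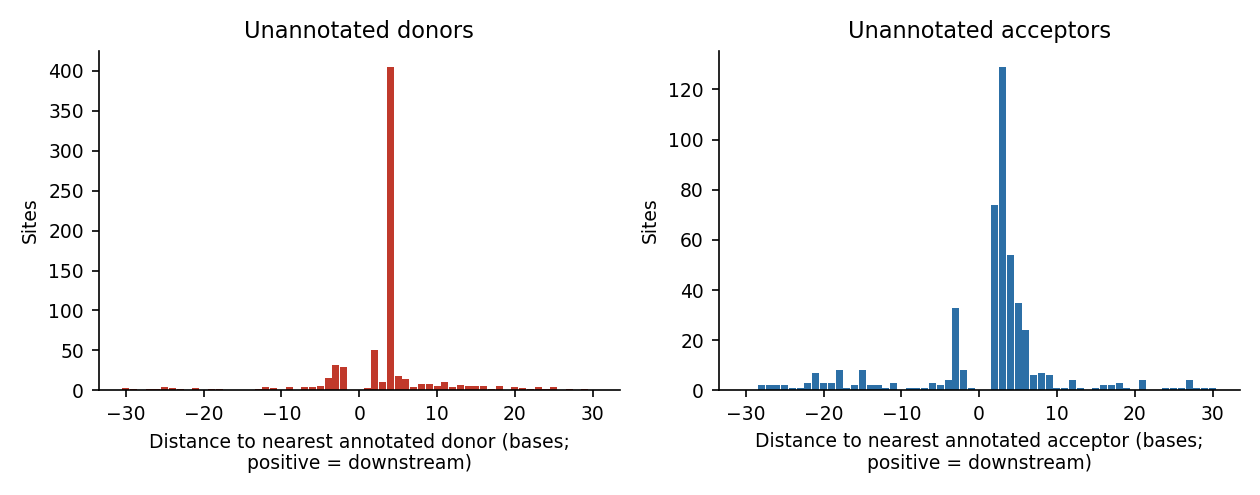
Number of unannotated donors (left) and acceptors (right) at each distance in bases from the nearest annotated site of the same kind in the gene, downstream being positive, within 30 bases. Of the donors 405 stand at 4 bases downstream, and of the acceptors 129 stand at 3 bases downstream.

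Donors and acceptors differed in how often their own shift was a multiple of 3. Each site was counted alone, so a second shift at the other end of the same intron was not taken into account. Among sites within 30 bases of an annotated site next to coding sequence, the shift was a multiple of 3 for 97 of 652 donors (14.9%, interval 12.2 to 17.8%) and for 213 of 413 acceptors (51.6%, interval 46.6 to 56.5%). Without the donors at 4 bases downstream, 97 of 276 donors had such a shift (35.1%). Without the acceptors at 3 bases either way, 73 of 273 acceptors did (26.7%). Sites of 1 gene share reads, so no test was made over sites.

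The letters at the sites could be read only where an annotated transcript or promoter covers them, since no genome sequence was used here. Both ends were readable for 444 of the 2033 junctions, which are those in parts that other annotated transcripts keep as exon. Of the 444, 416 ran from GT to AG (93.7%, interval 91.0 to 95.8%), 20 from GC to AG (4.50%), 1 from AT to AC and 7 otherwise. Junctions of the annotated models counted in the same libraries ran from GT to AG in 98.5% of 10776 readable cases. Junctions seen in both libraries had 93.1% GT-AG ends and those in 1 library had 94.3%. Where both sites were new, the share was 86.1% (87 of 101).

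The letters around donors at 4 bases downstream follow in part from where they lie. With a GT at the annotated and at the new donor, the annotated one reads GTNNGT, where N is any base, as in Idh3g, Fth1 and Scarb1 above, and the last exon base of the new site is the fourth base of the annotated intron. Of 20315 readable annotated donors counted, 7806 (38.4%) read GTNNGT, searched on the strand of the gene alone from the first intron base. A G at the fifth intron base, which the position does not set, was found in 29.7% of 118 readable donors at 4 bases, 53.5% of 368 other unannotated donors and 78.1% of annotated donors.

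Having the letters was not enough to give a new site. Of 7918 readable annotated donors with a GT 4 bases downstream that is not itself an annotated donor, 111 (1.40%) had one of the new donors there. An AG at 3 bases past an annotated acceptor was used in 125 of 4647 open cases (2.69%), at 2 bases in 72 of 5208 (1.38%), at 4 bases in 51 of 5511 (0.925%) and at 6 bases in 24 of 7484 (0.321%). These shares count models with 3 or more reads, so genes with few reads could seldom show one.

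Use of the new junction was set against the annotated junction that shares its other end. Such a pair existed for 1560 junctions, and the median use of the new one was 2.99% of the reads of both, pooled over the libraries. The donors at 4 bases downstream had the lowest median of the groups by kind and distance, 1.26% over 363 junctions, and 323 of these were under 5%. Summed over all 363, they drew 1806 of the paired reads in replicate 1 (0.552%) and 2508 in replicate 2 (0.923%). By this sum, acceptors within 30 bases at distances other than 3 were lower (0.392% in replicate 1 and 0.524% in replicate 2), and other donors within 30 bases had 0.662% and 0.886%. Acceptors at 3 bases either way had a median of 6.90% over 152 junctions, with 3.27% of the summed reads in replicate 1 and 7.72% in replicate 2. Donors more than 30 bases away had a median of 10% over 349 junctions, and acceptors that far had 7.94% over 190. Because a site needed 3 reads to be chosen, a low use could be seen only in well-read genes: the annotated junction had a median of 522 reads beside the donors at 4 bases and 65 beside the far donors.

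**Figure D3:**
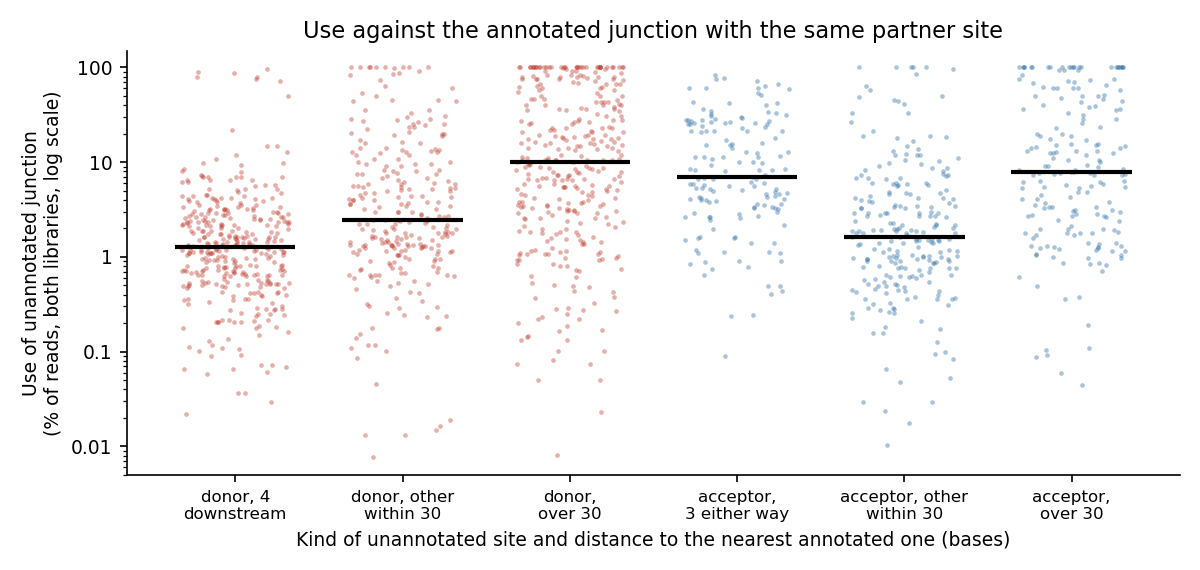
Reads on each unannotated junction as a percentage of its reads and those of the annotated junction with the same partner site (y axis, log scale, both libraries pooled), by kind of site and distance. Each point is a junction and the black line is the median, which is lowest for donors 4 bases downstream (1.26%) and 6.90% for acceptors 3 bases either way.

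A few donors at 4 bases broke from that low use. Idh3g encodes a regulatory subunit of the mitochondrial isocitrate dehydrogenase. Its unannotated junction (chrX:73782104-73782670) drew 236 reads in replicate 1 and 32 in replicate 2, against 33 and 5 reads on the annotated one. The model with this junction held 75.6% of the gene's 291 reads in replicate 1 and 66.0% of its 47 reads in replicate 2. Cpm, a membrane carboxypeptidase, used the new donor in 23 and 32 reads and the annotated one in 1 read of each library. Ptcd3, a protein of the mitochondrial ribosome, moved both ends of 1 intron by 4 bases. It therefore had no annotated junction with the same partner site, and its use in this sense was not measured. As a share of the gene, that model had 19 of 31 reads in replicate 1 and 57 of 79 in replicate 2.

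Ferritin heavy chain and ornithine decarboxylase antizyme showed the more usual case. The donor of Fth1 was used in 46 reads of replicate 1 and 5 of replicate 2, beside 7736 and 396 annotated reads. For Oaz1 the new donor had 46 and 3 reads, beside 3304 and 50. Near-identical copies of Fth1 exist as pseudogenes, so its reads are less certain.

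Other donors replaced an annotated one almost entirely. Hnrnpk, an RNA-binding protein that itself acts in splicing, used a donor 16 bases downstream in 382 reads of replicate 1 and 653 of replicate 2, while the annotated junction had 4 and 6. Its most read model with this donor held 33.2% of the gene in replicate 1 and 34.9% in replicate 2. A further donor 5 bases downstream of the same exon had 12 and 28 reads. Capn2, the large subunit of a calcium-dependent protease, had a donor 17 bases downstream in 27 and 188 reads. No read joined the nearest annotated donor to the same acceptor. Txnrd2, the mitochondrial thioredoxin reductase, had one 12 bases downstream in 88 and 56 reads, against 4 and 8. Nudt5, a hydrolase of ADP-sugars, had one 11 bases downstream in 34 and 15 reads, against 2 and 1.

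First exons gave several of the same kind. Chmp1a, part of the membrane-cutting ESCRT-III machinery, had its donor 25 bases downstream in 95 reads of replicate 1 and 110 of replicate 2. No read joined the nearest annotated donor to the same acceptor. Mrpl33, a protein of the large mitochondrial ribosomal subunit, stood apart between the libraries. Its donor 8 bases downstream was in 198 reads of replicate 1 and in 1 of replicate 2, where the gene had 239 and 7 reads in all.

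A long unannotated intron gave the main model of Cct6a, a subunit of the cytosolic chaperonin that folds actin and tubulin. Its unannotated junction spans 50376 bases (chr5:129794561-129844936) and joins the 5′ part of the gene, which GENCODE M21 lists without coding sequence, to a distant annotated 3′ part, with both sites new and GT-AG ends. The model drew 159 of 212 gene reads in replicate 1 (75%) and 178 of 236 in replicate 2 (75.4%). A second model with a donor nearby added 23 and 34 reads.

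**Figure D4:**
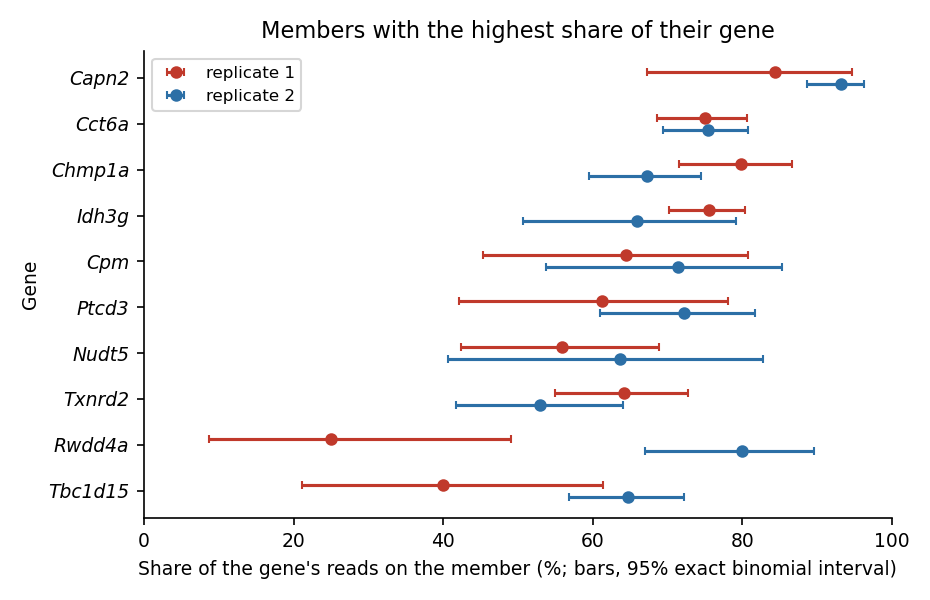
Share of a gene's reads on its unannotated model in replicate 1 (red) and replicate 2 (blue), with 95% exact binomial intervals, for the 10 models with the highest mean share among those with 3 or more reads in each library and 20 or more gene reads in each. Capn2 is highest, with 84.4% in replicate 1 and 93.2% in replicate 2, and the intervals of Rwdd4a do not overlap.

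Acceptors shifted by 3 bases were read beside the annotated one in several genes. In Aebp1, an extracellular matrix protein, an acceptor 3 bases upstream took 30 of 62 paired reads in replicate 1 (48.4%) and 373 of 726 in replicate 2 (51.4%). Cdkn1c, the imprinted cell-cycle inhibitor p57, used an acceptor 3 bases downstream in 271 and 40 reads against 587 and 119 annotated ones, or 31.6% and 25.2%. Dus1l, related to enzymes that modify transfer RNA, used the new one in 87 and 60 reads against 2 and 4. Boc, a co-receptor of hedgehog signals, had 19 and 124 against 9 and 47. Rwdd4a had an acceptor 3 bases upstream in 6 and 48 reads against 2 and 7, and that intron ends in AT.

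Longer acceptor shifts were found too. Api5, an inhibitor of apoptosis, used one 5 bases upstream in 19 and 102 reads against 25 and 150, or 43.2% in replicate 1 and 40.5% in replicate 2. Bsg, the membrane glycoprotein basigin, had one 28 bases upstream in 153 reads of replicate 1 and 13 of replicate 2. No read of either library joined the same donor to the nearest annotated acceptor. Most reads of Bsg were on other models, as the model with this acceptor held 143 of 985 in replicate 1 (14.5%). In replicate 2 it held 13 of 67 (19.4%).

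Steroid-making genes had the most models of all. Cyp21a1, the steroid 21-hydroxylase, had 22, Cyp11b1, the 11-beta-hydroxylase, had 16, Cyp11a1, the side-chain cleavage enzyme, had 12, and Star, which carries cholesterol into mitochondria, had 11. Of the 16 genes of the steroid synthesis list, 10 had at least 1, with 77 models in all. They drew 1.15% of the list's reads in replicate 1 and 1.79% in replicate 2, beside 1.06% and 2.03% over all annotated genes. Among genes with 100 or more reads over both libraries, 10 of 13 on this list had a model, and 879 of 2740 genes at large did (32.1%). The share of genes with a model rose with the gene's reads, being 0.364% of genes with 1 to 9 reads and 74.1% of 135 genes with 1000 or more.

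Within these genes each new site was a small share. The most read in Cyp11b1 was an acceptor 21 bases upstream of the last annotated one, with 83 reads in replicate 1 and 146 in replicate 2 beside 10875 and 17777 annotated reads (0.757% and 0.815%). Its donor 4 bases downstream had 34 and 168 reads beside 10817 and 17750. An acceptor 4 bases downstream at the far side of the same intron, shown above, had 31 and 58 reads. The most read in Cyp21a1 was an acceptor 18 bases upstream, with 72 and 37 reads beside 24458 and 13702. Star had a donor 4 bases downstream with 37 and 123 reads beside 6923 and 13039. In Cyp11a1 such a donor had 47 and 41 beside 6373 and 3168. Hsd3b1, which makes the delta-4 steroids, had an acceptor 31 bases into its second exon, ahead of the coding region, in 85 and 18 reads beside 10006 and 2030. Cyp21a1, Cyp11b1 and Hsd3b1 have near-identical relatives in the mouse genome, and reads can be split between such copies.

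Nr5a1, the nuclear receptor SF-1 that drives steroidogenic genes, had 8 models. A donor 108 bases downstream, a multiple of 3, drew 19 reads in replicate 1 and 86 in replicate 2, beside 77 and 858 annotated reads (19.8% and 9.11%). The model with the most reads held 15 of 244 gene reads in replicate 1 (6.15%) and 60 of 1104 in replicate 2 (5.43%). Its first exon had a donor 152 bases upstream of the annotated one in 10 and 37 reads against 2 and 12. The other regulators of steroid cells with a model were Mc2r, Prkar1a and Creb1, so that 4 of 12 listed genes had at least 1. Mc2r, the corticotropin receptor, had a new internal exon ahead of its coding region in 14 reads of replicate 1 and 4 of replicate 2.

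Genes of cholesterol supply and of chromaffin cells had such models too. Of 18 genes of cholesterol supply 8 had 1 or more, and all 8 were among the 12 with 100 or more reads. Of 19 chromaffin genes 9 had 1 or more, 8 of them among 11 with 100 or more reads. Cyb561, which feeds electrons into the chromaffin granule for catecholamine synthesis, began with a new first exon in 10 reads of replicate 1 and 56 of replicate 2 (4.76% and 7.93% of the gene). Chgb, a granule protein, had a first exon upstream of the annotated gene in 2 and 29 reads. Pnmt, which turns noradrenaline into adrenaline, had a first exon upstream of the gene in 9 of 318 gene reads of replicate 1 and none of 48 in replicate 2. The last 2 were picked after their values were seen. Of 25 splicing factors 5 had a model, of 95 genes with symbols starting Rpl or Rps 44, and of 94 with symbols starting Nduf, Uqcr, Cox or Atp5 27. These last lists were made by symbol and take in some other genes, such as the kinase gene Rps6kb1 and the assembly factor gene Cox17. Among genes with 100 or more reads the shares were 26.3% for splicing factors, 54.3% for Rpl and Rps symbols and 37.9% for the respiratory chain symbols, beside the 32.1% of all genes.

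New exons changed some models more than a shifted edge. Rapgef4, the cyclic-AMP-activated exchange factor EPAC2, began at an unannotated first exon inside the gene, whose donor (chr2:72145785) was spliced to a coding exon in 16 reads of replicate 1 and 204 of replicate 2. The model held 10 of 90 gene reads in replicate 1 (11.1%) and 182 of 463 in replicate 2 (39.3%). Other models of Rapgef4 joined the same first exon to further new internal exons, with 3 reads in replicate 1 and 26 in replicate 2 for 1 of them and 3 and 19 for another. Tbc1d15, an activator of Rab GTPases, held a new internal exon of 51 bases in 10 of 25 gene reads in replicate 1 (40%) and 103 of 159 in replicate 2 (64.8%). Oxtr, the oxytocin receptor, had 2 exons upstream of the annotated gene in 10 and 80 reads; it was picked after its values were seen.

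Rdh9 had introns with repeated letters at both ends. Repeats of 8 or more bases were found at 9 of 429 junctions that could be read for this, and Rdh9 was not alone in them. Rdh9 is a retinol dehydrogenase with close relatives beside it in the genome. Its junction shown above, from GT to AT, drew 5 reads in replicate 1 and 58 in replicate 2, and could slide over at least 30 bases without changing the spliced sequence. Another, from GC to AG, had 0 and 14 reads and could slide over at least 40 bases. Both introns measured 16547 bases, and both of their sites were new. Where a junction can slide, the position in the annotation is 1 of several that fit the reads.

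How often a model came back in the other library was counted apart from its choice. Of 929 models chosen in replicate 1, 450 were seen in replicate 2 (48.4%, interval 45.2 to 51.7%), and of 1210 chosen in replicate 2, 570 were seen in replicate 1 (47.1%, interval 44.3 to 49.97%). Weighted to the same counts in the first library, models labelled as a new combination of known sites came back in 65.6% and 50.2%. Annotated models did so in 71.5% and 74.2%. The new-combination label is not free of unannotated sites: 189 such models with 3 or more reads in replicate 1 and 409 in replicate 2 held one. At 21 to 50 reads, those from replicate 1 came back in 24 of 25 cases, beside 90.8% for annotated models, and those from replicate 2 in 43 of 53 (81.1%), beside 96.7%. Just under the threshold, models with 2 reads came back in 27.5% and 21.3% of cases, and with 3 reads in 39.8% and 31.9%. In genes with 200 or more reads in the other library, 79.2% of those from replicate 1 and 66.7% of those from replicate 2 were seen again.

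**Figure D5:**
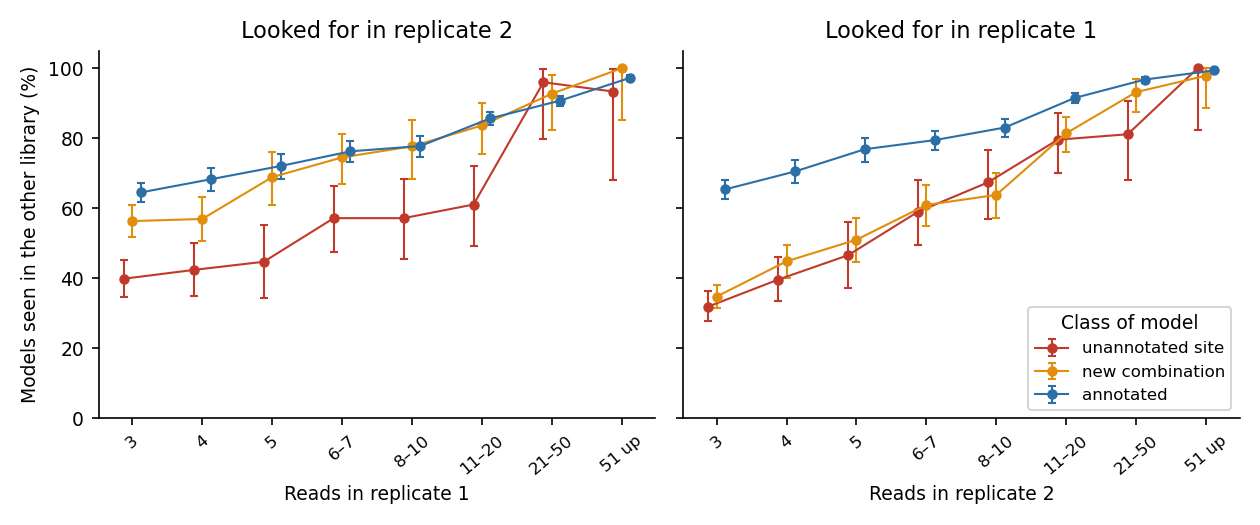
Share of models seen in the other library (y axis, percent) by reads in the library that chose them (x axis), for models with an unannotated site, models labelled as a new combination of known sites, and annotated models, with 95% Clopper-Pearson intervals. At 3 reads in replicate 1 the models with an unannotated site stand at 39.8% and annotated ones at 64.5%, and at 51 or more reads in either library the intervals of both classes overlap.

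Over both libraries, 820 of the 1939 models were seen in both, 479 in replicate 1 alone and 640 in replicate 2 alone. With 3 or more reads in each there were 287, and with 10 or more in each 64. Of the 820, 644 carried the NNC label in both tables and 150 were labelled as a new combination of known sites in the other. The unannotated junctions themselves were in both libraries in 1033 of 2033 cases (50.8%).

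The share of a model within its gene was compared between the libraries with a two-sided Fisher's exact test. P-values were adjusted by Benjamini-Hochberg over all 8518 models of any class that had 10 or more reads. Unspliced models of a gene that are not annotated were pooled into a single entry among these. Such a test compares 2 libraries and not conditions. Of 418 models with 10 or more reads and the NNC label in either table, 24 were not among those chosen, since fewer than 3 reads stood under that label. Of 343 models with an unannotated site, 37 passed at 0.05 (10.8%), while 29.7% of all models tested and 25.8% of 5111 annotated models did. Of the 37, 28 were higher in replicate 2 and 9 in replicate 1. Annotated models leaned the same way, with 844 higher in replicate 2 and 475 in replicate 1. Of all models tested, which include unspliced ones, 14.2% were higher in replicate 2 and 15.6% in replicate 1. The models with an unannotated site had fewer reads (median 17) than all models tested (median 31). Within each range of reads they still passed less often than annotated models and than all models. At 10 to 14 reads, 6 of 139 passed (4.32%), beside 13.8% of annotated models and 25.2% of all models. At 25 to 49 reads it was 16.1%, beside 18.8% and 26.9%. From 250 reads up only 5 were tested, and 2 passed. The size of the difference did not keep this order. Sign aside, the median log2 ratio at 10 to 14 reads was 0.786, beside 0.959 for annotated models and 1.33 for all models. At 25 to 49 reads it was 0.651, beside 0.451 and 0.642, and it stayed above both at higher reads. The cause of the lower share of models that passed was not tested. With spliced reads alone as the gene's total, 31 of 338 passed (9.17%), beside 19.6% of all models, and with no minimum of reads 31 of 1591 (1.95%), beside 2.87%. With 20 or more reads required, 24 of 144 passed (16.7%), beside 32.4% of all models. An exact binomial test on TMM-scaled counts, which does not take the gene's own reads into account, called 215 of 343 (62.7%), beside 67.4% of all models.

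Values for the models that passed show how far the libraries parted. Models with the largest log2 ratio in each direction were picked for that size, from the counts that also chose them, and are a description. The largest upward was in Cyp21a1, with 16 of 14024 gene reads in replicate 2 and 0 of 25459 in replicate 1. That model has a new last exon past the gene (chr17:34800870-34801793), and its share was at least 9.68-fold higher in replicate 2 when 3 reads are put in place of 0. The largest downward was in Agtr1a, an angiotensin receptor of the zona glomerulosa, whose model with a new last exon had 1 of 171 reads in replicate 2 and 9 of 64 in replicate 1 (log2 ratio -4.07). Aebp1 had 38.1% in replicate 2 and 14.8% in replicate 1 (adjusted p = 5.65e-08, Fisher's exact test), yet the use of its acceptor alone was 51.4% in replicate 2 and 48.4% in replicate 1. Spliced reads made up 752 of 770 for that gene in replicate 2, against 91 of 162 in replicate 1. With spliced reads alone as the gene's total, the call for Aebp1 was lost (log2 ratio 0.55, adjusted p = 0.0942, Fisher's exact test). Gm49708, a gene without coding sequence picked after its values were seen, had 50 of 57 reads in replicate 2 and 4 of 50 in replicate 1 (adjusted p = 2.63e-16, Fisher's exact test). Its spliced reads were 53 in replicate 2 and 4 in replicate 1, too few for the test on spliced reads alone, and all 4 of replicate 1 were on this model. Rapgef4 had 39.3% in replicate 2 and 11.1% in replicate 1 (adjusted p = 7.57e-07, Fisher's exact test), with 447 of 463 reads spliced in replicate 2 and 61 of 90 in replicate 1; its call held on spliced reads alone (log2 ratio 1.27, adjusted p = 0.00198, Fisher's exact test). Model length moved with the library throughout, as given above, and its part in these differences was not tested.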

How the data were processed

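The data are read counts per transcript model from 2 long-read RNA-seq libraries of the adrenal gland. The deposited values are raw counts, made by the authors with TALON, per the file headers, for each library on the mm10 build and the M21 release of GENCODE; models at 0 reads are left out of the tables. Aligner, read correction, platform and tool versions: not given in the sources used here.

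Exons of each model were read from the matching annotation. For models of both libraries, a donor or acceptor was called unannotated where no KNOWN transcript in the annotation of replicate 1 has it on that strand. Multi-exon models were matched by identical junction chains. Letters around sites were rebuilt from GENCODE M21 transcripts and RefSeq promoters on mm10 (0 contradicting bases). Clopper-Pearson intervals cover counting error only, since amplified reads are not independent molecules. A count of 0 allows up to 3 reads, 3.70 CPM in replicate 1 (810239 reads) and 5.10 CPM in replicate 2 (587861 reads). P-values likewise cover counting error between single libraries alone and hold no estimate of the spread between samples.

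Fisher's exact test set the reads of a model against the other reads of its gene, for models with 10 or more reads over both libraries in genes with 10 or more reads in each; the log2 ratio adds 0.5 to the model and 1 to the gene. The test was also run on counts simulated by a binomial draw within each gene. Such counts hold no spread between samples and no difference in length between the libraries. Named models were the 15 with the highest mean CPM, the 10 with the highest share of their gene, up to 10 of the steroid, cholesterol and chromaffin lists, and the largest ratio in each direction; others are named as examples of the printed sites, or as said in the text. One model that this rule names is not reported here. Models, lists and tests were chosen with earlier results of these data known. Alternatives covered the minimum count, the matching, the set of junctions and the test (TMM from edgeR 4.0.16). Computations used Python 3.11.15, scipy 1.17.1 and R 4.3.3.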

Additional observations from a re-analysis of the deposited data

How the results depend on the processing

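The number of models depended on the minimum count, with 806 at 5 or more reads, 284 at 10 or more and 287 at 3 or more in both libraries; each library alone gave 929 to 1210. Taking every NNC model from 1 read up gave 4.06% of the reads. The share seen in the other library was 47.7% over both directions. It was 62.5% at 5 or more reads, 78.0% at 10 or more, 74.2% where each site could lie within 10 bases, which also matches annotated neighbours, and 55.3% for the unannotated junctions alone. Junctions with a new donor alone made up 45.3% of those with readable GT-AG, GC-AG or AT-AC ends. Donors at 4 bases downstream were 27.1% among models seen in both libraries, and acceptors at 3 bases either way were 29.9% at 10 or more reads and 24.5% among models seen in both, against 19.2% in all. The GT-AG share stayed between 91.7% and 94.9% under all 7 alternatives tried. None of them reached junctions whose letters could not be read. KNOWN transcripts of both annotations gave the same 416 of 444 as the main count, and most others were subsets of these junctions. Of the tests within genes, 24 models passed at 20 or more reads (16.7%, beside 32.4% of all models). Under the TMM-scaled binomial test 215 passed (62.7%, beside 67.4%). Of the 37 calls, 6 were lost on spliced reads alone and 16 with no minimum of reads. The log2 ratio of the binomial test is of levels between the libraries and not of shares within a gene. It had the other sign in Erlec1 (-0.032), Aldh1l1 (0.40) and 1 model of Cyp11a1 (-0.076). In replicates 1 and 2, Erlec1 had 5 of 47 and 5 of 10 gene reads, and Aldh1l1 had 8 of 88 and 11 of 662. The Cyp11a1 model had 33 of 6531 and 32 of 3408. The cause of the differences between settings was not tested. Taking any class label, an alternative chosen after seeing the data, gave 2688 models and 50 of 443 passing. No paired analysis was possible because there is only 1 group. Depth limits the list, since models of 3 reads made up 359 of 929 in replicate 1 and 477 of 1210 in replicate 2.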
